A study of Mus musculus with 12 samples.

Results

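Shh, Ihh, Edn1, Angpt1, Angptl4, Vegfa, Pdgfa and Ackr3 are genes through which an epithelium can act on the stromal cells and vessels beneath it. The 8 genes were taken by symbol from the deposited count table, by matching its Ensembl identifiers to GENCODE M21. They are 8 of 43432 genes in the table, and all 8 were among the 16636 genes with enough counts to be tested. The genes were chosen by the read counts of these same 12 libraries, with their gate and tissue differences known. Their values are therefore given as a description, with no p-value for any of the 8, and the sort gate and tissue differences are not independent evidence about them.

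Gene expression was measured by RNA sequencing of epithelial cells from Flare25 mice, which carry a fluorescent reporter of the cytokine gene Il25 that marks tuft cells. The reporter's red signal was used to sort live EpCAM+ cells into an IL-25+ and an IL-25- fraction. There were 4 groups of 3 libraries: gallbladder IL-25+ (GB-pos), gallbladder IL-25- (GB-neg), proximal small intestine IL-25+ (SI-pos) and proximal small intestine IL-25- (SI-neg). All came from reporter mice described as at homeostasis, and no genotype without the reporter was included. The labels of the gallbladder samples also give a treatment with HDM AF647 1 day before collection, and those of the small intestine samples do not, so tissue and this treatment cannot be told apart. The labels give neither age nor sex, and they do not say whether replicates of a group came from separate mice, so errors and p-values measure the spread between these samples, which may be technical. In a bulk sample, fewer cells of a type and less RNA per cell cannot be told apart.

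The hedgehog ligands Shh and Ihh are secreted by gut epithelium and bind Ptch1 on neighbouring mesenchyme, which frees Smo to act on the Gli transcription factors. Endothelin 1, from Edn1, is cut from its precursor and constricts vessels through Ednra and Ednrb. Vegfa binds Flt1 and Kdr on endothelium with the co-receptors Nrp1 and Nrp2, Angpt1 binds Tek to steady vessels, and Pdgfa binds Pdgfra on fibroblasts. Angptl4 is a secreted inhibitor of lipoprotein lipase. Ackr3 is a scavenging receptor that takes up the chemokine Cxcl12.

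Library totals ran from 23703449 to 64736650 counts, and levels are given as CPM, the count scaled to a common library size. A count of 0 in 1 library allows up to 3 counts, or 0.0421 to 0.122 CPM, which covers counting error only. Il25 had 6.39, 12.03 and 6.92 CPM in GB-pos, against 0.674, 0.0295 and 0 CPM in GB-neg, and 6.38, 18.2 and 14.6 CPM in SI-pos, against 0, 0.0334 and 0.0508 CPM in SI-neg. The 10 tuft markers summed to 23715 to 25038 CPM in GB-pos, 39.8 to 188 CPM in GB-neg, 32529 to 39686 CPM in SI-pos and 83.9 to 259 CPM in SI-neg. The 10 gallbladder markers summed to 1719 to 2214 CPM in GB-pos and 6859 to 7573 CPM in GB-neg. Of these, 7 fell in gallbladder and 6 in small intestine, and Sox9 rose in both tissues. The 10 enterocyte markers summed to 7236 to 8707 CPM in SI-pos and 15898 to 24654 CPM in SI-neg. Only Mgam among them passed the threshold in small intestine, where it fell, and in gallbladder 2 fell and Vil1 rose. The 7 goblet markers summed to 47.6 to 109 CPM in GB-pos, 641 to 792 CPM in GB-neg, 126 to 534 CPM in SI-pos and 4401 to 59692 CPM in SI-neg, and 4 of them fell in GB-pos and all 7 in SI-pos. Of 10 enteroendocrine and 6 Paneth markers, 7 and 4 fell in SI-pos and none passed the threshold in gallbladder. Of 11 immune markers 7 were tested. All 11 summed to 3.93 to 17.8 CPM in GB-pos, 20.5 to 215 CPM in GB-neg, 26.4 to 43.2 CPM in SI-pos and 23.99 to 40.1 CPM in SI-neg. Among them Csf1r, a macrophage receptor, fell in gallbladder (-8.50 ± 1.76, adjusted p = 0.0030). Adgre1, another macrophage gene, passed the threshold in small intestine, with 322 counts in SI-pos and 3 in SI-neg. Related markers of the list did not all move the same way, and none of the following passed the threshold. In GB-pos and GB-neg, Adgre1 had 218 and 9 counts, Lyz2 71 and 19, and Itgam 561 and 8306. In SI-pos and SI-neg, Csf1r had 84 and 134 counts, Itgam 1130 and 2365, and Lyz2 296 and 135. Mitochondrial genes held 7.13% to 8.83% of counts in GB-pos, 11.2% to 25.001% in GB-neg, 12.1% to 17.2% in SI-pos and 26.6% to 34.9% in SI-neg. The part of these changes in cell make-up and mitochondrial share in the gate differences of the 8 genes and of the gene lists was not tested. The 10 stroma markers stayed at or below 11.1 CPM in sum in every library. SI-neg 3 held gallbladder transcripts, at a median of 1.81% of their level in GB-neg 1 over 12 genes, and GB-neg 1 held small intestine transcripts, at a median of 5.42% of their level in SI-neg 3 over 24 genes. In the other libraries these medians were at most 0.143%. Values of Shh, Angpt1, Tek and Tie1 that rest on counts in these libraries are given with and without them. In SI-neg 3 itself Tek had 0.0508 CPM and Tie1 had 0, and GB-neg 1 also held 48 of the 49 Il25 counts of GB-neg. The source of the Tek and Tie1 counts in GB-neg 1 was not tested.

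The letters before the starts of 3 genes are shown, since Edn1 was low in both IL-25+ groups, Vegfa was high in SI-pos and Ackr3 was at 2 counts in SI-pos and 1 in SI-neg. They are the 250 bases before each start in RefSeq, build GRCm38.p6, read along the gene. They lie at chr13:42301226-42301475 (+) for Edn1, at chr1:90203730-90203979 (+) for Ackr3, at chr17:46032378-46032627 (-) for the outer Vegfa start and at chr17:46025164-46025413 (-) for a Vegfa start inside the gene. Capitals mark ACGTG or GCGTG, the letters of hypoxia response elements, on either strand, so that CACGT is ACGTG on the other strand.
Edn1: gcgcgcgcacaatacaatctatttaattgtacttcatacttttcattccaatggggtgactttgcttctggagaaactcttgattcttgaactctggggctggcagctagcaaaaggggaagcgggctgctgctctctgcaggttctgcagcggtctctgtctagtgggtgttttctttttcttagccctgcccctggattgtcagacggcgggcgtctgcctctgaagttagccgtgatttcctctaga
Ackr3: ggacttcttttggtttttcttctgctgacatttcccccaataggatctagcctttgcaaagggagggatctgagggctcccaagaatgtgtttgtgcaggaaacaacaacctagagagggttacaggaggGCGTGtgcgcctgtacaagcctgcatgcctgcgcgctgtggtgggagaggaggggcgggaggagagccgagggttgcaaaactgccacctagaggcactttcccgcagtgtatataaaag
Vegfa, outer start: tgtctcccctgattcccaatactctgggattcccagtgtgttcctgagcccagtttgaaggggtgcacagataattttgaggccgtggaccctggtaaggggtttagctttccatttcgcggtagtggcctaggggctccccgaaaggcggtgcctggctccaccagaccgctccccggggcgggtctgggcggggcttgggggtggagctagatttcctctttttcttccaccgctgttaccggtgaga
Vegfa, inner start: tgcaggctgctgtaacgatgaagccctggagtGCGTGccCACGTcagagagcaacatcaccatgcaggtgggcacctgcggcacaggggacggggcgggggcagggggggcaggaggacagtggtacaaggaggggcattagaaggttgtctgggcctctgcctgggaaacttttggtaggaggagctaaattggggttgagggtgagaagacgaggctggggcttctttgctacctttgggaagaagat
RefSeq windows were matched for 5 of the 8 genes, 7 windows in all, and Shh, Angpt1 and Angptl4 had none. Of the 32851 windows of all genes, 38.6% held either motif, 16.6% held ACGTG and 28.2% held GCGTG. The Ackr3 window and 1 of the 2 Pdgfa windows held GCGTG. The inner Vegfa window held GCGTG and ACGTG, so 3 of the 7 windows held either motif. That inner window lies wholly within the Vegfa gene, which spans 46016993 to 46032369, so its letters can belong to transcribed sequence. The same limit holds for both Pdgfa windows, which lie wholly within the Pdgfa gene, at 138976014 to 138997370. Whether any of these letters act as hypoxia response elements was not tested. The windows of Edn1, Ihh, the outer Vegfa start and the other Pdgfa start did not hold these letters. TGANTCA, the letters bound by AP-1 factors such as Fos, was in 6.75% of all windows and in none of the 7.

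In gallbladder, 6 of the 8 genes were lower in IL-25+ than in IL-25- cells and none was higher, and in small intestine 3 were lower and 1 was higher. The gallbladder genes were Shh, Ihh, Edn1, Angpt1, Angptl4 and Pdgfa, where 26.8% of all genes tested passed the threshold and 14.4% fell. The small intestine genes were Ihh, Edn1 and Angptl4, lower, and Vegfa, higher, where 27.2% of all genes passed, 12.8% fell and 14.5% rose. A gene counted here passed an adjusted p of 0.05 in edgeR's quasi-likelihood test over all genes. Nothing is read from these counts, since the genes were chosen with the contrast known. The median log2 fold change of the 8 was -4.10 in gallbladder, beside -0.15 over all genes, and -1.10 in small intestine, beside -0.07 over all genes. The groups did not overlap in CPM for 6 of the 8 genes in gallbladder and for 4 in small intestine, and over all genes these shares were 41.3% and 49.3%.

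**Figure D1:**
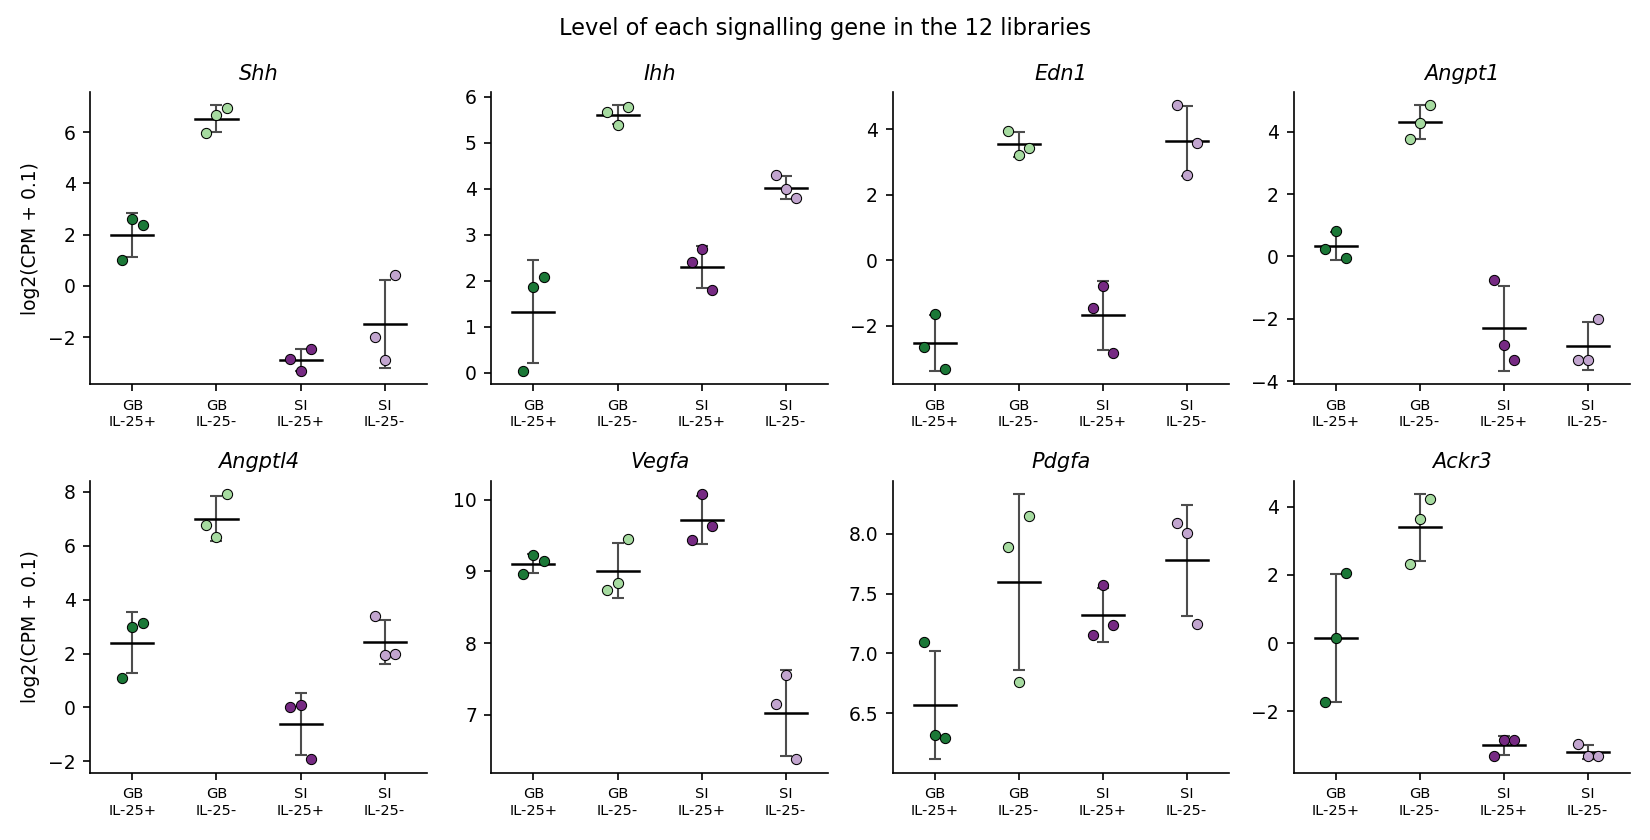
Level of each of the 8 genes in the 12 libraries, as log2 of CPM plus a small constant as given on the axis, with gallbladder IL-25+ and IL-25- left of small intestine IL-25+ and IL-25-. Points are libraries, and bars are the mean and SD of 3. The Vegfa SI-pos libraries, at 690 to 1083 CPM, lie above all SI-neg libraries.

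Shh was a gallbladder transcript with little signal in small intestine. Shh had 1.92, 5.98 and 5.06 CPM in GB-pos, against 61.8, 102 and 124 CPM in GB-neg. All 3 GB-pos libraries lay below all 3 GB-neg libraries, and the log2 fold change was -4.48 ± 0.86 (SE), or 22.3-fold lower. Small intestine held 3 counts over the 3 SI-pos libraries, against 55 counts over the 3 SI-neg libraries, of which 49 were in SI-neg 3. The ratio of those sums was 13.5-fold lower in SI-pos, with a 95% exact interval of 4.40 to 67.7 for counting error only, and the groups overlapped. Without SI-neg 3 there were 3 counts in SI-pos and 6 in SI-neg, a ratio of 2.39-fold lower (0.511 to 14.8). Over all 12 libraries the difference did not pass the threshold. It passed in 4 of the 19 alternatives that tested it, which were DESeq2, the replicate block, and leaving out SI-neg 1 or SI-neg 2. The Shh level in SI-neg 3 was 2.01% of that in GB-neg 1, beside the 1.81% median of the 12 gallbladder genes found in that library. Shh lies on chromosome 5 at 28456815 to 28467256 of GRCm38, and the exons of the opposite-strand genes Gm26894 and 9530036O11Rik cover 12.7% and 15.7% of its exon bases. Since the libraries do not mark strand, reads from these stretches cannot be assigned to one gene.

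Ihh was measured in both tissues and was lower in IL-25+ cells in each. Gallbladder levels were 0.929, 3.53 and 4.12 CPM in GB-pos, against 50.6, 41.8 and 55.0 CPM in GB-neg. Those groups were far apart, at a log2 fold change of -4.10 ± 0.51 (SE), or 17.2-fold lower. Small intestine levels were 5.24, 6.38 and 3.36 CPM in SI-pos, against 19.5, 15.9 and 13.7 CPM in SI-neg. These groups did not overlap either, at -1.71 ± 0.46 (SE), or 3.27-fold lower, and the call was lost without SI-pos 3 or without SI-neg 1. The gate difference was 2.39 log2 units more negative in gallbladder, at -2.39 ± 0.65 (SE). Of the 8 genes, Ihh and Vegfa had such a difference past the threshold, both more negative, where 9.23% of all genes passed. For Ihh it passed the threshold over all 12 libraries and in 9 of 19 alternatives, and it did not pass when SI-pos 1, SI-pos 2 or any 1 of the 6 IL-25- libraries was left out.

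Of the 16 other hedgehog pathway genes, 9 had enough counts to be tested. In small intestine 1 rose and 3 fell, with a list median of -1.57, and in gallbladder 1 rose and none fell, with a median of -0.17. Over all genes tested, 14.5% rose and 12.8% fell in small intestine, and 12.4% rose and 14.4% fell in gallbladder. The same shares stand beside every list and marker count of the gate comparisons in this text, and those counts are description only. Sufu, an inhibitor of the Gli factors, rose in both tissues, by 1.86 ± 0.47 in gallbladder (adjusted p = 0.0098) and by 3.18 ± 0.49 in small intestine (adjusted p = 0.00039). The gallbladder call of Sufu was lost without GB-pos 1. Ptch1, the hedgehog receptor and itself a target of the pathway, had 76.8, 65.1 and 57.3 CPM in GB-pos, against 47.0, 93.0 and 78.6 CPM in GB-neg, and these groups overlapped (log2 fold change -0.13 ± 0.27, SE). In small intestine Ptch1 fell, with 20.8, 13.8 and 20.9 CPM in SI-pos, against 62.6, 54.3 and 47.3 CPM in SI-neg (-1.57 ± 0.28, adjusted p = 0.0011). The co-receptor Boc fell in small intestine (-4.34 ± 1.06, adjusted p = 0.0087), as did Hhat, which attaches palmitate to hedgehog ligands and was named after its value was seen (-2.76 ± 0.84, adjusted p = 0.027). Smo averaged 0.532 ± 0.921 CPM in GB-pos and 6.17 ± 2.42 CPM in GB-neg, and 1.27 ± 1.19 CPM in SI-pos and 15.2 ± 7.27 CPM in SI-neg (SD, n = 3). Neither Smo difference passed the threshold, and both passed without GB-pos 2. The pathway targets Gli1 and Hhip had 0 counts in all 12 libraries.

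Edn1 was nearly absent from IL-25+ cells of both tissues. Gallbladder libraries had 0.0581, 0.223 and 0 CPM in GB-pos, or 8 counts in all, against 15.5, 9.25 and 10.7 CPM in GB-neg. The log2 fold change was -7.02 ± 1.14 (SE), or 130-fold lower. Small intestine libraries had 0.264, 0.481 and 0.0405 CPM in SI-pos, or 20 counts in all, against 26.6, 5.97 and 11.8 CPM in SI-neg. The groups did not overlap in either tissue, and the small intestine log2 fold change was -5.80 ± 1.06 (SE), or 55.7-fold lower. Both calls were made under all 20 alternatives. The 2 gate differences were not shown to differ (-1.22 ± 1.32, SE).

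Of 8 genes of the endothelin list, 6 were tested, 1 rose and 1 fell in small intestine, and 4 fell and none rose in gallbladder, with list medians of -2.53 in gallbladder and -1.85 in small intestine. Ece1, which cuts the endothelin precursor to its active form, fell in both tissues, with 159 ± 12.2 CPM in GB-pos and 249 ± 21.97 CPM in GB-neg (SD, n = 3, log2 fold change -0.65 ± 0.16, adjusted p = 0.0084). In small intestine Ece1 averaged 133 ± 3.48 CPM in SI-pos and 372 ± 53.3 CPM in SI-neg (-1.49 ± 0.16, adjusted p = 2.2e-05). Furin, a protease that makes the first cut of the precursor, rose in small intestine (1.01 ± 0.32, adjusted p = 0.035), a call kept in 12 of 20 alternatives and lost without SI-pos 3 or without any 1 of the SI-neg libraries. Mme, a peptidase that degrades endothelin, fell in gallbladder (-2.88 ± 0.64, adjusted p = 0.0068). It had 7.26, 7.68 and 6.16 CPM in GB-pos, against 61.8, 82.5 and 11.2 CPM in GB-neg. GB-neg 1 held small intestine transcripts, and Mme was at 791 CPM in SI-neg 3. The Mme call was lost with limma-voom and made in 19 of 20 alternatives, among them leaving out GB-neg 1. The ligands Edn2, with 1 count in GB-pos and 151 in GB-neg, and Edn3, with 7 in GB-pos and 206 in GB-neg, also fell there and were named after their values were seen. The receptors Ednra and Ednrb had 0 counts in all 12 libraries.

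Angpt1 was counted mainly in gallbladder IL-25- cells. Its levels were 1.07, 1.67 and 0.861 CPM in GB-pos, against 13.4, 19.4 and 28.6 CPM in GB-neg. No library of one gallbladder group reached the other, and the log2 fold change was -4.09 ± 1.15 (SE), or 17.0-fold lower. The call was lost without GB-pos 1, without GB-pos 3 or without GB-neg 3. Small intestine held 14 counts in SI-pos, 13 of them in SI-pos 1, and 6 counts in SI-neg, all in SI-neg 3. The small intestine difference did not pass the threshold. The 6 counts put Angpt1 in SI-neg 3 at 1.14% of its level in GB-neg 1. Exons of the opposite-strand gene Gm17473 cover 14.2% of the Angpt1 exon bases, and that gene had 1 count in the 12 libraries.

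Transcripts of the Angpt1 receptor were in the other gate. Tek, the receptor tyrosine kinase that Angpt1 binds, had 240, 358 and 324 CPM in GB-pos, against 0.716, 0.0295 and 0 CPM in GB-neg. The rise was 9.97 ± 1.202 log2 units (adjusted p = 0.00018). Of its 52 counts in GB-neg, 51 were in GB-neg 1, and without that library the ratio of 29939 counts in GB-pos to 1 in GB-neg was 19600-fold higher, with a 95% exact interval of 3530 to 776000 for counting error only. Small intestine levels of Tek were 9.81, 5.58 and 9.61 CPM in SI-pos, against 0.771, 0.701 and 0.0508 CPM in SI-neg (4.06 ± 0.97, adjusted p = 0.012). The gate difference of Tek was larger in gallbladder by 5.91 ± 1.35 log2 units (adjusted p = 0.022), a call lost without any 1 of the 3 SI-pos libraries, SI-neg 1 or SI-neg 2. Tie1, the partner receptor of Tek, had 21.7, 9.17 and 8.05 CPM in GB-pos, against 0.0561, 0 and 0 CPM in GB-neg (8.86 ± 1.40, adjusted p = 0.00045). All 4 of its GB-neg counts were in GB-neg 1, and without that library it was at least 283-fold higher in GB-pos on a floor of 3 counts over the group. The gallbladder calls of Tek and Tie1 were made in all 20 alternatives. In small intestine Tie1 had 5 counts in SI-pos and 2 in SI-neg. Of 6 genes of the angiopoietin list, 5 were tested, with 2 higher and 1 lower in gallbladder (list median 4.62) and 1 higher in small intestine (list median -2.54). The gallbladder gene that fell was Angpt2, a second ligand of Tek, with 1 count in GB-pos and 34 in GB-neg, named after its value was seen. Its call was made in 11 of the 18 alternatives that tested it, and those that lost it included leaving out GB-pos 2, GB-pos 3, GB-neg 2 or SI-neg 1.

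Tek is also a marker of endothelium. Of the 9 endothelium markers, Cdh5, Emcn and Cldn5 had 0 counts in every library, and Kdr had 0 in GB-pos. Without Tek and Kdr the 7 remaining markers summed to 21.2 to 30.0 CPM in GB-pos, 3.44 to 14.5 CPM in GB-neg, 12.7 to 17.8 CPM in SI-pos and 4.49 to 11.1 CPM in SI-neg. Most of the sum outside SI-neg was Esam, at a mean of 24.7 CPM in GB-pos, 8.01 in GB-neg, 14.4 in SI-pos and 1.56 in SI-neg. Pecam1, Vwf and Egfl7 averaged 0.167, 0.0866 and 0.326 CPM in GB-pos. Of the 7, Esam rose in small intestine and none passed the threshold in gallbladder.

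Angptl4 was lower in IL-25+ cells of both tissues and highest in gallbladder IL-25- cells. Gallbladder libraries had 2.03, 7.72 and 8.75 CPM in GB-pos, against 108, 80.0 and 244 CPM in GB-neg. The groups were separate, and the log2 fold change was -4.54 ± 0.75 (SE), or 23.3-fold lower. Small intestine libraries had 0.905, 0.963 and 0.162 CPM in SI-pos, against 10.3, 3.70 and 3.86 CPM in SI-neg. They were separate as well, at -3.13 ± 0.75 (SE), or 8.74-fold lower, and both calls were made under all 20 alternatives.

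Of 9 other angiopoietin-like and lipase genes, 7 were tested, and 1 passed the threshold in each tissue. Lmf1, a chaperone needed to mature lipoprotein lipase, rose by 2.27 ± 0.33 in gallbladder (adjusted p = 0.00027) and by 3.04 ± 0.34 in small intestine (adjusted p = 3.3e-05). The list medians were -1.99 in gallbladder and -0.91 in small intestine. Lpl, lipoprotein lipase itself, had 5 counts in GB-pos, 79 in GB-neg, 5 in SI-pos and 49 in SI-neg.

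Vegfa was the most abundant of the 8 genes per length in 3 of the 4 groups, and its gate difference was larger in small intestine than in gallbladder. In gallbladder it had 497, 598 and 564 CPM in GB-pos, against 426, 458 and 696 CPM in GB-neg. Those groups overlapped, and the log2 fold change of 0.07 ± 0.28 (SE) did not pass the threshold. In small intestine it had 690, 1083 and 790 CPM in SI-pos, against 141, 188 and 83.03 CPM in SI-neg. Every SI-pos library was above every SI-neg library, at 2.64 ± 0.30 (SE), or 6.22-fold higher. The gate difference was 2.57 log2 units less in gallbladder (-2.57 ± 0.41, SE), and it passed the threshold in all 19 alternatives.

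In gallbladder the co-receptor Nrp2 rose while Nrp1 and the receptor Flt1 fell, and in small intestine both Nrp1 and Nrp2 fell. Of 9 genes of the VEGF list, 6 were tested, with 1 higher and 3 lower in gallbladder (list median -2.42, or -2.11 with Vegfc at its bound) and 2 lower in small intestine (list median -1.11). Nrp1 had 0.436, 1.41 and 0.673 CPM in GB-pos, against 25.9, 22.8 and 44.2 CPM in GB-neg (-5.21 ± 0.78, adjusted p = 0.00031). It had 0.113, 0.0401 and 0 CPM in SI-pos, against 8.93, 26.9 and 5.66 CPM in SI-neg (-7.95 ± 0.97, adjusted p = 5.8e-05), so it fell in both tissues. Nrp2 had 29.7, 44.8 and 32.7 CPM in GB-pos, against 2.06, 1.98 and 0.0974 CPM in GB-neg (4.68 ± 0.96, adjusted p = 0.0029). In small intestine it had 0.226, 0 and 0.284 CPM in SI-pos, against 1.16, 2.50 and 2.26 CPM in SI-neg (-3.51 ± 1.00, adjusted p = 0.019), a call lost without SI-pos 2. Nrp2 thus rose in one tissue and fell in the other, and the difference was 8.19 ± 1.38 log2 units (adjusted p = 0.0024). Flt1, a Vegfa receptor, fell in gallbladder, with 0.668, 0.297 and 0 CPM in GB-pos, against 6.86, 11.9 and 16.4 CPM in GB-neg (-5.17 ± 1.48, adjusted p = 0.020), a call lost without GB-pos 2 or without GB-neg 3. Kdr had 0 counts in GB-pos, 6 in GB-neg, 4 in SI-pos and 57 in SI-neg. Vegfc, a lymphatic growth factor named after its value was seen, had 0 counts in GB-pos and 97 in GB-neg, at least 23.4-fold lower on a floor of 3 counts over the group.

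**Figure D2:**
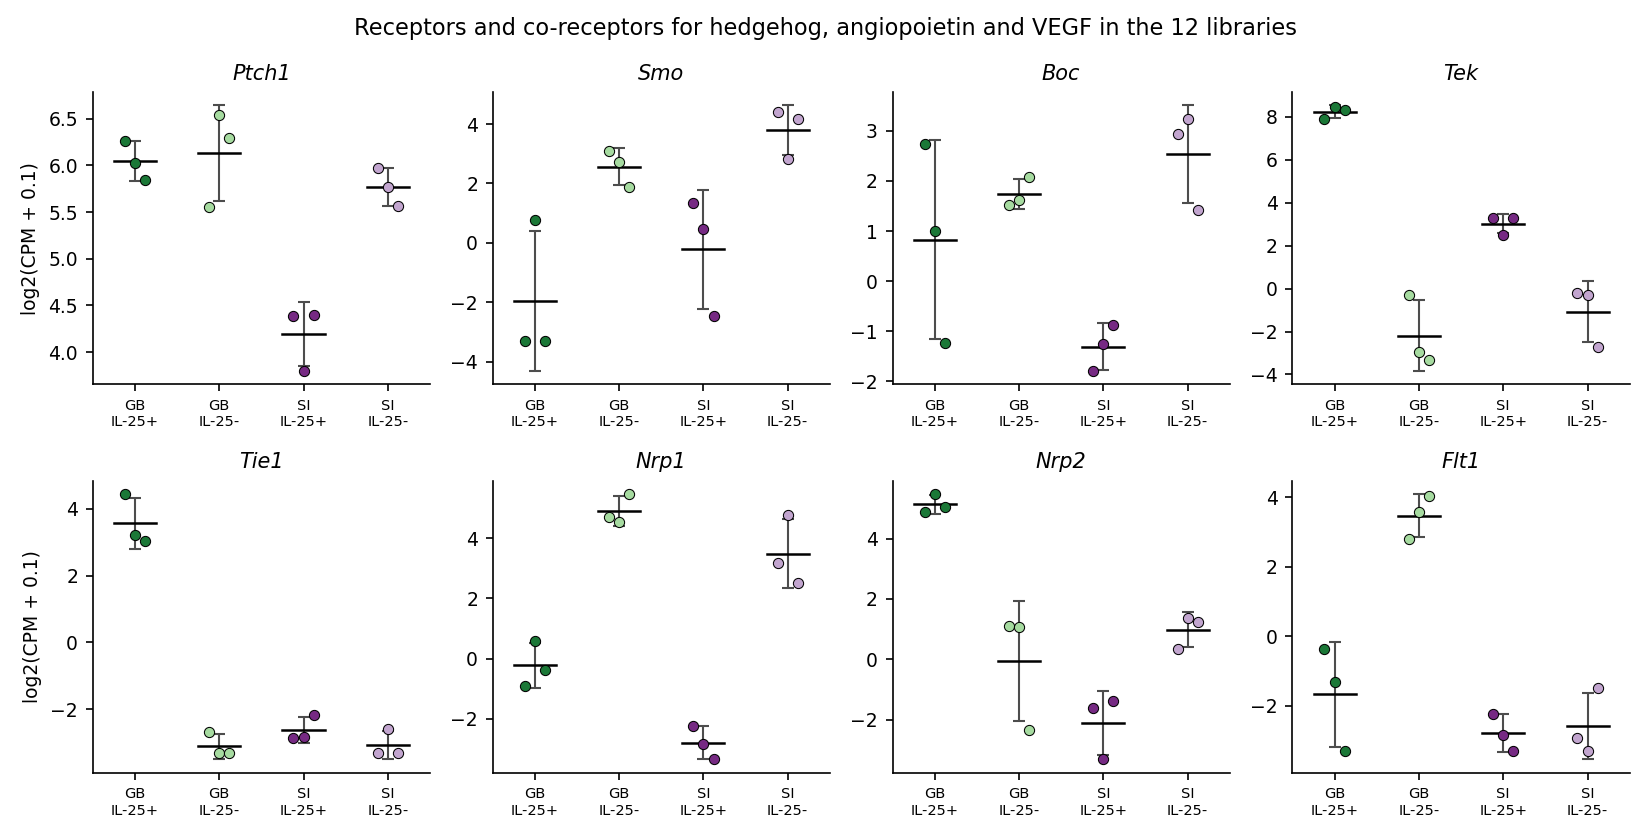
Levels of 8 receptors and co-receptors for hedgehog, angiopoietin and VEGF ligands in the 12 libraries, as log2 of CPM plus a constant as given on the axis, with points for libraries and bars for the mean and SD of 3. Tek and Nrp2 are high in GB-pos, at 240 to 358 and 29.7 to 44.8 CPM, and Nrp1 is low in both IL-25+ groups.

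Pdgfa was abundant in all 4 groups with small gate differences. It had 137, 79.8 and 78.2 CPM in GB-pos, against 237, 109 and 283 CPM in GB-neg. The log2 fold change was -1.09 ± 0.34 (SE), or 2.14-fold lower, although GB-pos 1 lay above GB-neg 2. The threshold was passed in 13 of 20 alternatives and was missed without GB-pos 2, GB-pos 3, GB-neg 1 or GB-neg 3. Small intestine libraries had 142, 191 and 151 CPM in SI-pos, against 272, 257 and 152 CPM in SI-neg. They overlapped, and the difference of -0.49 ± 0.34 (SE) did not pass the threshold. Pdgfa lies on chromosome 5 at 138976014 to 138997370 of GRCm38, and exons of the opposite-strand gene 6330403L08Rik cover 26.1% of its exon bases. That neighbour had 298 counts in GB-pos and 583 in GB-neg, and 178 in SI-pos and 479 in SI-neg.

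Of the other 5 genes of the PDGF list, 4 were tested. Pdgfd, another PDGF ligand, fell in gallbladder (-3.30 ± 0.99, adjusted p = 0.026), with 4.34 ± 4.05 CPM in GB-pos and 42.7 ± 18.0 CPM in GB-neg (SD, n = 3), and the call was lost without GB-pos 1, GB-pos 3 or GB-neg 3. No gene of the list passed the threshold in small intestine, and 1 fell in gallbladder, with list medians of -0.56 in gallbladder and -1.16 in small intestine. Pdgfra, the receptor of Pdgfa, had 0 counts in GB-pos, 40 in GB-neg, 1 in SI-pos and 0 in SI-neg. Pdgfrb averaged 1.202 ± 2.08 CPM in GB-pos and 0.884 ± 1.53 CPM in GB-neg, and 3.80 ± 1.74 CPM in SI-pos and 0.398 ± 0.350 CPM in SI-neg (SD, n = 3), and neither difference passed the threshold.

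Ackr3 was the receptor among the 8 genes, and its counts were almost all in gallbladder. It had 0.203, 1.00 and 4.01 CPM in GB-pos, against 4.86, 12.3 and 18.7 CPM in GB-neg. The highest GB-pos library lay just below the lowest GB-neg library. The log2 fold change of -2.77 ± 1.07 (SE) did not pass the threshold. It passed in 4 of 20 alternatives, which were DESeq2, limma-voom, the replicate block, and leaving out GB-pos 3, at -4.33. Small intestine held 2 counts in SI-pos and 1 in SI-neg, too few in both gates for a fold between them. Of 9 genes around Ackr3, Cxcl12 and adrenomedullin, 6 were tested, and 1 fell in each tissue, with list medians of -1.73 in gallbladder and -0.26 in small intestine. Calcrl, the adrenomedullin and CGRP receptor, had 4 counts in GB-pos and 1355 in GB-neg (-7.58 ± 1.73, adjusted p = 0.0056). Ramp1, the partner that makes Calcrl a CGRP receptor, had 0 counts in SI-pos and 545 in SI-neg, at least 134-fold lower on a floor of 3 counts over the group (adjusted p = 0.0050). Cxcl12 had 30 counts in GB-pos and 79 in GB-neg, and 5 in SI-pos and 1 in SI-neg. Cxcr4, the signalling receptor of Cxcl12, had 15 counts in GB-pos and 46 in GB-neg, and 38 in SI-pos and 25 in SI-neg.

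**Figure D3:**
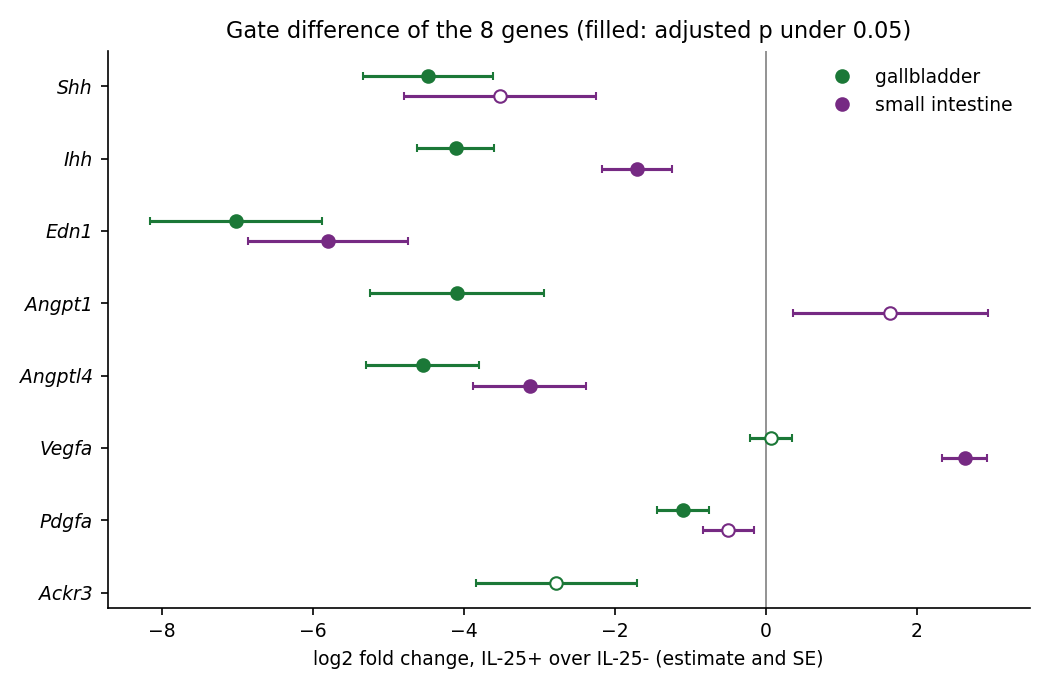
Log2 fold change of IL-25+ over IL-25- cells for the 8 genes in gallbladder and small intestine, with the SE as bars and filled points where the adjusted p in edgeR was under 0.05. Ackr3 has no small intestine point, the Shh small intestine point rests on 3 counts in SI-pos, and Vegfa stands at 2.64 in small intestine and 0.07 in gallbladder.

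Between tissues, 3 of the 8 genes were higher in GB-pos than in SI-pos and 6 were higher in GB-neg than in SI-neg, and none was lower in gallbladder in either gate. Over all genes, 10.5% rose in the IL-25+ comparison and 13.0% in the IL-25- comparison. The groups did not overlap for 6 of the 8 genes in each, beside 41.9% of all genes in IL-25+ and 43.5% in IL-25- cells. These comparisons share their libraries with those of the gates, and the genes were chosen with both known. In IL-25+ cells Shh had 415 counts in GB-pos and 3 in SI-pos, a ratio of 107 (95% exact interval 36.3 to 520, for counting error only). Ackr3 had 183 counts in GB-pos and 2 in SI-pos, a ratio of 70.7 (19.3 to 588), which rests on those 2 counts. Angptl4 was higher in GB-pos by 3.18 ± 0.75 log2 units (SE). Vegfa and Pdgfa had lower levels in GB-pos with no overlap, at -0.63 ± 0.28 and -0.72 ± 0.34 (SE), and neither passed the threshold.

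In IL-25- cells the genes higher in gallbladder were Shh, Ihh, Angpt1, Angptl4, Vegfa and Ackr3. Shh was higher by 7.60 ± 1.01 log2 units (SE), and by 9.996 without SI-neg 3. Angpt1 was higher by 8.46 ± 1.46 (SE), and without SI-neg 3, which held all 6 SI-neg counts, it was at least 389-fold higher on a floor of 3 counts over the group. Angptl4 differed by 4.59 ± 0.75 and Vegfa by 1.94 ± 0.29 (SE). Ihh differed by 1.59 ± 0.46 (SE), and this call was lost without SI-neg 2, SI-neg 3 or GB-neg 3. Ackr3 had 1338 counts in GB-neg and 1 in SI-neg, a ratio of 1015 that rests on that 1 count (95% exact interval 182 to 40102, for counting error only). Edn1 and Pdgfa overlapped between the tissues, at -0.32 ± 0.84 and -0.11 ± 0.34 (SE).

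Levels of different genes can be compared only per length, here as mean CPM per kilobase of exon. In GB-pos Vegfa (129) and Pdgfa (31.5) stood above Angptl4 (1.74), Shh (1.52), Ihh (0.938), Ackr3 (0.519) and Angpt1 (0.231), with Edn1 (0.0438) lowest. Neighbours from Angptl4 to Angpt1 in that order had overlapping ranges. In GB-neg the order was Vegfa (123), Pdgfa (67.2), Angptl4 (40.7), Shh (33.8), Ihh (16.1), Edn1 (5.52), Angpt1 (3.93) and Ackr3 (3.57). There Pdgfa overlapped Angptl4, Angptl4 overlapped Shh, and the last 3 overlapped in turn. In SI-pos Vegfa (199) and Pdgfa (51.7) stood far above Ihh (1.64), and the other 5 genes were at or below 0.191. In SI-neg Pdgfa (72.8) stood above Vegfa (32.1), followed by Edn1 (6.92) and Ihh (5.37), which overlapped, and then Angptl4 (1.68).

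Lists of genes known to respond to the signals that control some of the 8 were read beside them. Vegfa and Angptl4 are known hypoxia targets. Of 19 hypoxia genes, 9 rose and 3 fell in small intestine and 4 rose and 4 fell in gallbladder, with medians of 1.06 in small intestine and -0.24 in gallbladder. Slc2a1, the glucose transporter GLUT1, rose in both, by 2.21 ± 0.22 in gallbladder (adjusted p = 9.9e-06) and by 3.86 ± 0.23 in small intestine (adjusted p = 1.8e-07). Ndrg1 averaged 269 ± 29.3 CPM in GB-pos and 249 ± 59.8 CPM in GB-neg, and 525 ± 108 CPM in SI-pos and 43.0 ± 14.2 CPM in SI-neg (SD, n = 3). Pfkfb3, a driver of glycolysis, averaged 273 ± 72.6 CPM in GB-pos and 197 ± 89.6 CPM in GB-neg, and 568 ± 117 CPM in SI-pos and 32.5 ± 9.59 CPM in SI-neg. Both rose in small intestine, by 3.61 ± 0.28 (adjusted p = 1.2e-06) and 4.13 ± 0.37 (adjusted p = 4.2e-06), and neither passed the threshold in gallbladder. Their gate differences were smaller in gallbladder, at -3.50 ± 0.36 for Ndrg1 (adjusted p = 0.00010) and -3.66 ± 0.47 for Pfkfb3 (adjusted p = 0.00040). Over the list 8 of 19 genes had a more negative gate difference in gallbladder and none a more positive one, where 5.6% of all genes were more negative and 3.63% more positive. Car9, a carbonic anhydrase, fell in both tissues, with 69.8 ± 27.8 CPM in GB-pos and 895 ± 410 CPM in GB-neg, and 39.8 ± 15.5 CPM in SI-pos and 108 ± 29.1 CPM in SI-neg. Its small intestine call was lost without SI-pos 2, SI-pos 3, SI-neg 1 or SI-neg 3.

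Angptl4 is also a known target of PPAR receptors. Of 9 PPAR receptors and targets, 8 were tested, with none higher and 6 lower in gallbladder (median -1.10) and 2 higher and 2 lower in small intestine (median -0.77). Pdk4, which limits pyruvate use, fell in both, at -3.82 ± 0.80 in gallbladder (adjusted p = 0.0041) and -4.63 ± 0.86 in small intestine (adjusted p = 0.0020). Plin2, a lipid droplet coat protein, fell in gallbladder (-2.93 ± 0.51, adjusted p = 0.00085) and did not pass the threshold in small intestine. Cpt1a, of fatty acid import into mitochondria, fell in gallbladder (-1.10 ± 0.17, adjusted p = 0.00033) and rose in small intestine (0.99 ± 0.17, adjusted p = 0.00075).

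Edn1 is a known target of AP-1, and tissue dissociation is known to raise immediate early genes. Of 14 immediate early and stress genes, 12 fell and none rose in gallbladder (median -2.21), where 14.4% of all genes fell. In small intestine 5 fell and 2 rose (median -0.24), where 12.8% of all genes fell and 14.5% rose. Egr1 averaged 1131 ± 47.3 CPM in GB-pos and 6509 ± 1979 CPM in GB-neg, and 39.9 ± 1.87 CPM in SI-pos and 580 ± 183 CPM in SI-neg (SD, n = 3), and it fell in both tissues. Fos fell in both tissues, at -3.28 ± 0.32 in gallbladder (adjusted p = 7.9e-06) and -2.44 ± 0.31 in small intestine (adjusted p = 7.4e-05). Zfp36 fell in gallbladder (-2.49 ± 0.21, adjusted p = 2.7e-06) and rose in small intestine (0.79 ± 0.20, adjusted p = 0.0095), a call lost without SI-neg 3 and GB-neg 1 together. The part of these genes in the levels of the 8 was not tested.

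**Figure D4:**
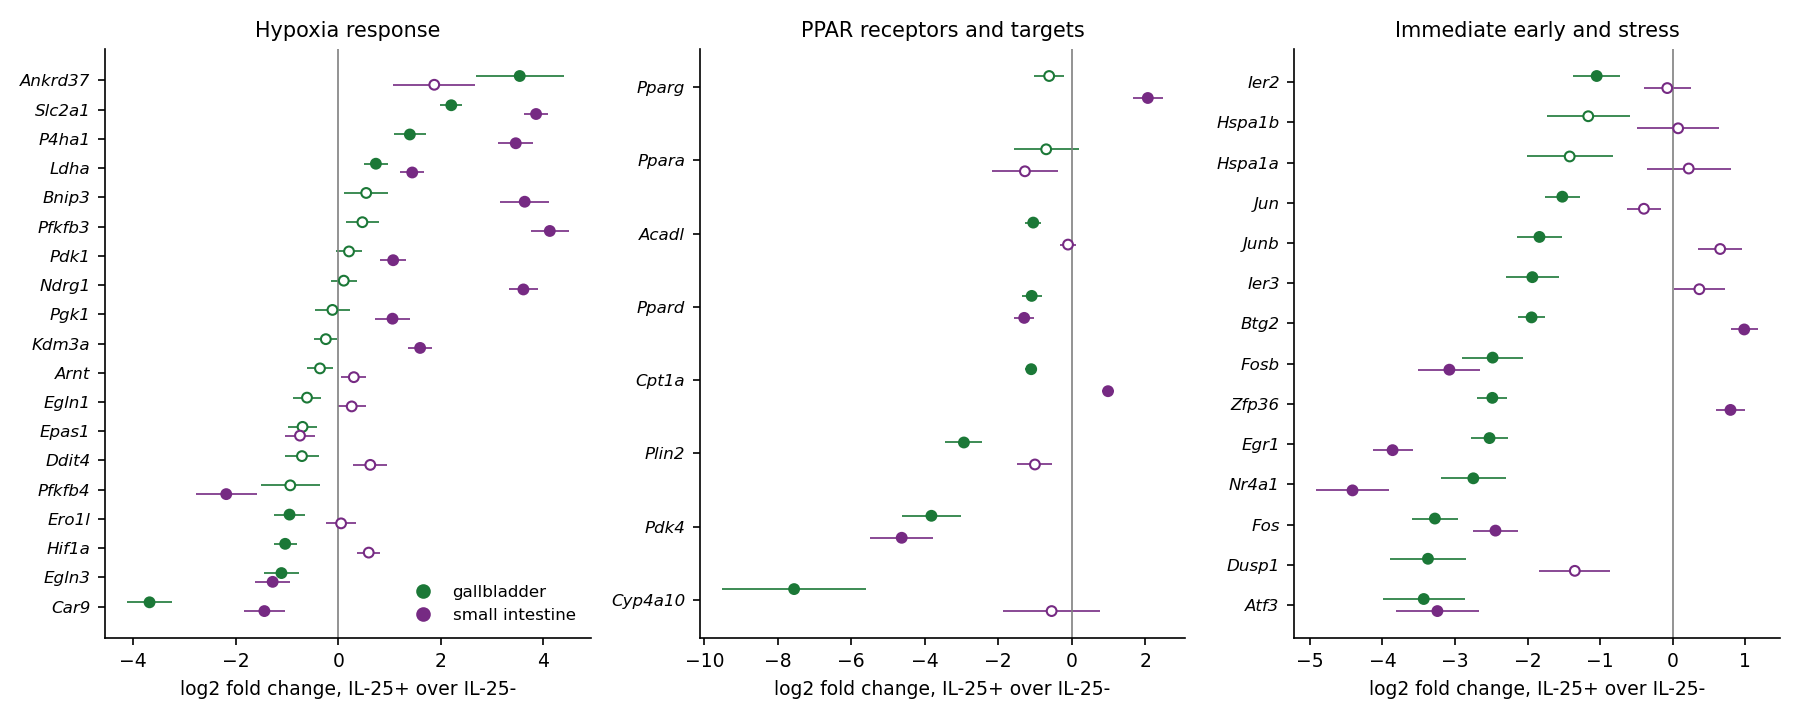
Log2 fold change of IL-25+ over IL-25- cells for the tested genes of the hypoxia, PPAR and immediate early lists in gallbladder and small intestine, with the SE as bars and filled points where the adjusted p in edgeR was under 0.05. Ndrg1 and Pfkfb3 stand near 0 in gallbladder, at 0.11 and 0.47, and at 3.61 and 4.13 in small intestine, and the Cyp4a10 gallbladder point rests on 0 counts in GB-pos.

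Across the 12 libraries the 8 genes fell into patterns that other genes shared. Likeness was measured as Pearson's r of log2 CPM with a prior count of 2, over 11864 genes that reached 5 CPM in a group, and since the libraries form 4 groups it mostly follows the group means. Shh and Ackr3 were alike (r = 0.933), as were Shh and Angpt1 (r = 0.938), and Ihh was most like Edn1 among the 8 (r = 0.880). Edn1 and Vegfa ran opposite (r = -0.611). The genes nearest to Shh were Gpc6 (r = 0.994), Slc9a4 and C4bp, and those nearest to Ihh were Ugt2a3 (r = 0.972), 2610507B11Rik and Galnt3. For Edn1 they were Dcp1a (r = 0.967), Ralgapa2 and 2610507B11Rik. For Angpt1 they were Zfp185 (r = 0.976), Slco4c1 and Ephx4, and for Ackr3 Nr0b2 (r = 0.980), Slc35f5 and Fut9. Angptl4 was nearest to Prss23 (r = 0.987), Cyp2s1 and Flrt3. Vegfa was nearest to S100a11 (r = 0.974), Hilpda, a hypoxia-induced lipid droplet protein, and Fut2. Pdgfa had no gene closer than Igsf3 (r = 0.859), with Myo5b and Fhl2 next. With a prior count of 0.5, the 3 nearest to Ackr3 were all other genes, namely Aplp2, Klf11 and Phc3. Socs6 then replaced Zfp185 for Angpt1, Cnih4 and Fads2 replaced Ralgapa2 and 2610507B11Rik for Edn1, and Hmga2 replaced 2610507B11Rik for Ihh. Angpt1 and Ackr3 also dropped out of a longer list of genes nearest to Shh, and Ihh and Edn1 out of each other's. Shh stayed in those of Angpt1 and Ackr3. The r values among the 8 were taken with the prior count of 2 only.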

How the data were processed

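Counts per Ensembl gene were used as deposited. Per the submitters' processing notes, reads were aligned to GRCm38 with STAR 2.7.2b, and DESeq2 1.26 was used. The read counter, its strand setting and the annotation are not given in the sources used here. Per the labels' protocols, cDNA was amplified and Nextera XT libraries were prepared from it, a kit that leaves reads without strand. Of 43432 genes, 884 had no match in GENCODE M21, and 11 columns that match no sample label were not used.

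The deposited counts were fitted with edgeR 4.0.16 (R 4.3.3), with TMM scaling, filterByExpr at a minimum count of 10, which left 16636 genes, and a robust quasi-likelihood fit of 4 group means over 12 libraries. Adjusted p-values are Benjamini-Hochberg over all genes, with a threshold of 0.05. CPM used TMM-scaled library sizes. Values after ± are SD where marked and SE of log2 fold changes elsewhere. The 8 genes and the gene lists were chosen with earlier results of these data known. Genes named beside the 8 were up to 4 per list with the lowest adjusted p and at least 5 CPM in 1 group, listed receptors, and the 3 genes nearest in pattern. Alternatives were RLE scaling, DESeq2 1.42.0, limma-voom with quality weights (limma 3.58.1), 2 other filters, a replicate block, fits of the compared groups only, and leaving out libraries. Replicate libraries differed beyond sampling noise, at 45.3 or more for chi-square over its degrees of freedom in each pair. Some genes of the lists are not reported here.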

Additional observations from a re-analysis of the deposited data

Results flagged for a closer look

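Each gene given here had a gate difference (IL-25+ over IL-25-) that differed between gallbladder and small intestine in the interaction test over all 12 libraries, with an adjusted p under 0.05 in edgeR. Values are the gallbladder log2 fold change minus that of small intestine. The tissues also differ in the HDM AF647 label, which cannot be told apart from tissue.

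Among the 8 genes the difference was -2.57 for Vegfa and -2.39 for Ihh. Among their pathway partners it was 1.43 for Ptch1, 0.84 for Ece1, 5.91 for Tek and 8.19 for Nrp2. The calls of Vegfa and Nrp2 were made in all 19 alternatives. The calls of Ptch1 and Ece1 were each lost without SI-pos 1, 2 or 3, SI-neg 1 or 2, GB-pos 1 or 2, or GB-neg 1 or 3.

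Of the hypoxia genes named, Slc2a1 had -1.65, Ndrg1 -3.50, Pfkfb3 -3.66, P4ha1 -2.07, Car9 -2.24 and Hif1a -1.63 log2 units. Of the PPAR receptors and targets, Cpt1a had -2.09 and Pparg -2.68 log2 units. Of the immediate early genes, Egr1 had 1.34, Zfp36 -3.28 and Btg2 -2.93 log2 units. The Egr1 call was lost without SI-pos 1, 2 or 3, SI-neg 1, GB-pos 1, 2 or 3, or GB-neg 1 or 2, and that of Car9 without SI-pos 1, SI-neg 1 or 2, or GB-neg 3. The reasons for these differences were not tested.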

How the results depend on the processing

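Of 21 differences of the 8 genes that passed the threshold, 14 passed under every alternative run, and of 19 that did not pass, 14 passed under none. Over 787 values of the 8 genes under alternatives, 734 kept their direction and side of the threshold, 27 lost a call, 18 gained one, 8 that were not called changed sign and none of those called changed sign. The count of all genes called in small intestine was 6832 with limma-voom, against 4529. That of the interaction was 2644 with DESeq2, which ran over 28133 genes, against 1536 over 16636 genes. The interaction called 604 genes more positive and 932 more negative with TMM, or 39.3% more positive, against 779 and 743, or 51.2%, with RLE, which moved the median of all genes by 0.16 there, by -0.12 in the small intestine gate comparison and by 0.11 between IL-25+ groups. DESeq2, over its 28133 genes, moved the gallbladder gate median by 0.14. With edgeR and no filter on low counts, also over 28133 genes, that median was -0.07, beside -0.15 in the main fit. With 1 library left out, genes called ran from 3040 to 4774 in small intestine, 3525 to 4469 in gallbladder, 2740 to 4157 between IL-25+ groups, 3042 to 4233 between IL-25- groups and 1050 to 1566 for the interaction. The 8 genes then gave 3 to 5, 4 to 6, 3 to 4, 5 to 6 and 1 to 3 calls in these comparisons. Same-numbered libraries deviated little together (correlations of -0.05 to 0.16 over genes), with the highest value between GB-pos 3 and GB-neg 3. With 3 libraries a group, these correlations cannot show whether same-numbered libraries were paired. With the replicate block, 4254 genes were called in small intestine, 4074 in gallbladder, 3540 and 3796 between tissues and 1340 for the interaction, where 1 of the 8 genes was called in place of 2. The block called 5 of the 8 in small intestine in place of 4, with Shh gained, and 7 in gallbladder in place of 6, with Ackr3 gained. Depth limits the small intestine values of Shh, Angpt1 and Ackr3, which rest on at most 55 counts a group.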

Other observations

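Other secreted epithelial signals were read from a list of 11 TGF-beta and BMP ligands, of which 10 were tested. In each tissue 1 rose and 1 fell, with medians of -1.76 in gallbladder and -1.24 in small intestine. Bmp2, which acts on neighbouring mesenchyme and epithelium, had 109, 218 and 104 CPM in GB-pos, against 36.5, 31.4 and 67.8 CPM in GB-neg, and rose by 1.67 ± 0.35 log2 units (edgeR adjusted p = 0.0033). It had 145, 151 and 189 CPM in SI-pos, against 17.2, 22.2 and 12.9 CPM in SI-neg, and rose by 3.21 ± 0.37 (adjusted p = 3.8e-05). Both calls were made under all 20 alternatives. Bmp8b, another BMP ligand, had 0 counts in GB-pos and 211 in GB-neg, at least 51.0-fold lower, and 2 counts in SI-pos and 131 in SI-neg, a ratio of 48.4-fold lower (95% exact interval 13.1 to 404, for counting error only). It fell in both tissues and was named after its values were seen. Its small intestine call (adjusted p = 0.040) was made in 9 of the 19 alternatives that tested it. The call was lost with the replicate block, with no filter on low counts, or on leaving out any 1 of the GB-neg libraries, SI-neg 1, SI-neg 2, SI-pos 1 or SI-pos 2.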
